A study of Mus musculus with 6 samples.

Results

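Interleukin receptor chains are the surface proteins through which CD8+ T cells sense growth, survival and inflammatory cytokines. The 10 chains described here were chosen by name: Il2ra, Il2rb, Il2rg, Il7r, Il15ra, Il4ra, Il21r, Il12rb1, Il12rb2 and Il18r1. All 10 were found among the 55414 genes of the deposited count table and all 10 were among the 23003 genes that passed the filter on low counts. The RNA came from spleen and lymph node CD8+ T cells of the OT-I genotype, whose transgenic receptor recognises a fragment of ovalbumin. The N4 group (2 libraries) was taken 4 days after stimulation with the ovalbumin peptide itself. The T4 group (2 libraries) was taken 4 days after stimulation with a variant peptide of lower potency. Along with either peptide came costimulation by anti-OX40 and anti-4-1BB antibodies. For the naive OT-I cells (2 libraries) the labels name neither peptide nor antibody, so peptide and antibody effects cannot be told apart against them. The labels give no age or sex of the mice, no sorting gate, and no statement that the libraries of a group came from separate mice.

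Receptors for IL-2, IL-4, IL-7, IL-15 and IL-21 share the common gamma chain, encoded by Il2rg, and signal through JAK1 and JAK3 to STAT proteins. IL-2 and IL-15 also share the beta chain Il2rb, and each adds an alpha chain of its own, Il2ra (CD25) or Il15ra. The IL-12 receptor pairs Il12rb1 with Il12rb2 and signals through TYK2 and JAK2 to STAT4, whereas Il18r1 is a member of the IL-1 receptor family that signals with Il18rap through MyD88. In CD8+ T cells CD25 is known as a chain of activated cells, and Il7r as the chain that sustains naive and memory cells.

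The libraries held 269033066 to 335968843 estimated counts, and 21317 to 27147 genes had a count above 0. The 12 T cell markers summed to 3991 and 4862 CPM in N4 libraries, 3778 and 3964 CPM in T4 libraries and 5406 and 5316 CPM in naive libraries, where CPM is the count scaled by library total and TMM factor. Cd3d and Cd3g were the largest in every library, at 2147 and 3013 CPM and at 736 and 952.2 CPM in N4 libraries. None of the 12 was at 0 in any library, and 2 of them, Cd2 and Lat, were called lower in N4 than in naive cells. Their median log2 fold change in that comparison was -0.66, and 3 of the 12 were above 0. Cd8b1 was at -1.55 ± 0.40 (edgeR adjusted p = 0.0592). Markers of other cells differed far more. The 12 macrophage and monocyte markers summed to 20.97 and 16.96 CPM in N4 libraries, 271.3 and 257.3 CPM in T4 libraries and 2246 and 2669 CPM in naive libraries. Neutrophil markers summed to 49.2 and 39.06 CPM in N4 libraries, 14.52 and 7.265 CPM in T4 libraries and 2465 and 25290 CPM in naive libraries, so naive library 2 stood apart. The 10 B cell markers summed to 4.307 and 2.735 CPM in N4 libraries, 58.89 and 56.28 CPM in T4 libraries and 25.98 and 67.13 CPM in naive libraries. Among them Blnk, Cr2, Pax5 and Fcer2a were at 0 in both N4 libraries.

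In N4 cells 5 of the 10 chains differed from naive cells. Il2ra and Il18r1 rose, 28.5-fold and 2.51-fold, while Il2rg, Il7r and Il4ra fell. Among all genes tested 4.87% were called higher and 7.18% lower, beside 2 and 3 of the 10 chains. The chains were chosen with earlier results of these data known, so these shares do not test the list. With scaling to T cell markers the split was 3 higher (Il2ra, Il12rb2 and Il18r1) and 1 lower (Il2rg). In T4 cells none of the chains was called against naive cells, and between the peptides Il2ra and Il18r1 were called higher in N4. The comparisons of N4 and of T4 with naive cells share the naive libraries, so they are not independent of each other.

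**Figure D1:**
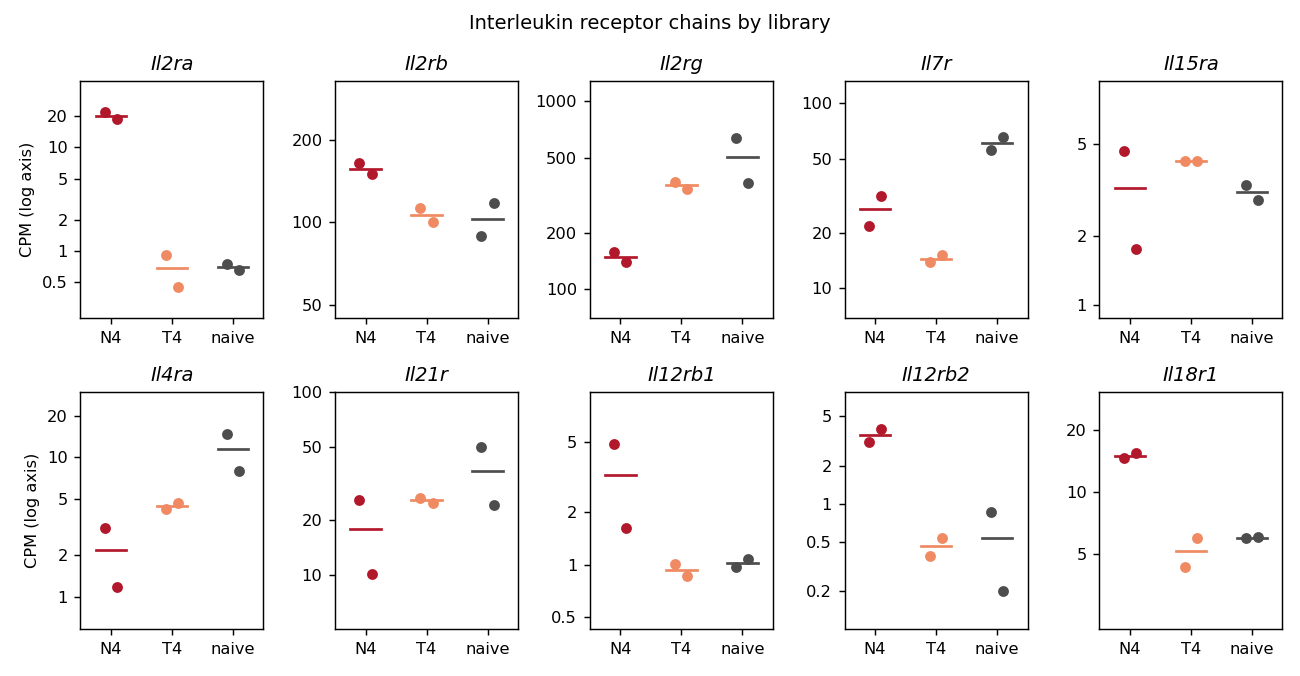
TMM-scaled CPM of the 10 receptor chains, on log axes with a separate range per gene; points are the libraries of N4, T4 and naive cells (n = 2 each) and lines the group means. Il2ra stands near 20.3 CPM in N4 cells and under 1 CPM in T4 and naive cells, and Il7r is lower in all 4 stimulated libraries than in both naive libraries.

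The promoters of the 5 chains called in N4 against naive cells are shown here, a choice that rests on those calls alone. Each run is the 250 bases before the RefSeq start in GRCm38.p6, read 5′ to 3′ on the gene's strand. Capitals mark matches to 4 short motifs searched on both strands: STAT (TTCNNNGAA), AP-1 (TGANTCA), NFAT (TGGAAA) and FOXO (TGTTTAC).
Il2ra, chr2:11642542-11642791, plus strand: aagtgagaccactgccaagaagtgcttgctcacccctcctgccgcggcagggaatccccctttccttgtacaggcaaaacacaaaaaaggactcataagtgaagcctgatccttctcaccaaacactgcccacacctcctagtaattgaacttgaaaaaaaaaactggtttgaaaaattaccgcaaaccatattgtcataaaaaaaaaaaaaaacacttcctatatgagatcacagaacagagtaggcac
Il18r1, chr1:40465302-40465551, plus strand: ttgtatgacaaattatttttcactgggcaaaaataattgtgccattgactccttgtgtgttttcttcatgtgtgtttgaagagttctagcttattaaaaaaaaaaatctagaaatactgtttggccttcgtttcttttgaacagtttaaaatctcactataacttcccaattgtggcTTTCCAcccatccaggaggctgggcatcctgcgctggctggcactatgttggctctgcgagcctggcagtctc
Il2rg, chrX:101268256-101268505, minus strand: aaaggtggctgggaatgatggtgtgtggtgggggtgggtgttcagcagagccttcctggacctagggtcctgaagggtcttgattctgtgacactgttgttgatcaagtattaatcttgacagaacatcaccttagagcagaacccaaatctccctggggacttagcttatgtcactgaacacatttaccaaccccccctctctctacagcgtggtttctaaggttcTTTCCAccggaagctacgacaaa
Il7r, chr15:9529877-9530126, minus strand: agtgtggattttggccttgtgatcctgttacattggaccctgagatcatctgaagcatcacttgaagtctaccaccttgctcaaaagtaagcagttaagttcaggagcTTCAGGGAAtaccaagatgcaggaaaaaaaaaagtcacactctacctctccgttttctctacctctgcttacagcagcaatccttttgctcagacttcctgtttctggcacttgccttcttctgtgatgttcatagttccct
Il4ra, chr7:125552021-125552270, plus strand: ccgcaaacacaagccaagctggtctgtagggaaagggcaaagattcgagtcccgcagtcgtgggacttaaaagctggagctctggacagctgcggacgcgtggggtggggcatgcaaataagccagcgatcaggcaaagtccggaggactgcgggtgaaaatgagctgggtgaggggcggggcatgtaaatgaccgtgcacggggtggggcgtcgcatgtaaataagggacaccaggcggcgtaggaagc
The Il18r1 promoter holds the NFAT letters on the opposite strand, 73 to 68 bases before the start. The Il2rg promoter holds them, also on the opposite strand, 23 to 18 bases before the start, and the Il7r promoter holds the STAT letters 142 to 134 bases before the start. No letters of these motifs occur in the windows of Il2ra and Il4ra. RefSeq promoters were found for 8 of the 10 chains, all but Il2rb and Il12rb1. Of these 8, 2 hold the STAT letters (Il7r and Il12rb2), 3 the NFAT letters (Il2rg, Il15ra and Il18r1), 1 the FOXO letters (Il21r) and 0 the AP-1 letters. Among 32851 mouse promoters of the same length the shares are 7.02% for STAT, 18.6% for NFAT, 3.17% for FOXO and 6.75% for AP-1. The motifs were chosen after the expression values were known, and a match is a run of letters, not a shown binding site.

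Il2ra (ENSMUSG00000026770.6, chromosome 2, 11642807 to 11693193, plus strand, GRCm38) encodes the alpha chain that gives the IL-2 receptor its high affinity. It stood at 21.83 and 18.77 CPM in N4 libraries, 0.914 and 0.452 CPM in T4 libraries and 0.7607 and 0.6606 CPM in naive libraries. Both N4 libraries lay far above the other 4, and the T4 and naive libraries overlapped. The log2 fold change was 4.83 ± 0.45 (SE) in N4 against naive cells, with an edgeR adjusted p of 0.008. Against T4 cells it was 4.89 ± 0.45, a 29.7-fold difference with an edgeR adjusted p of 0.0143. In T4 against naive cells it was -0.06 ± 0.39 (95% interval -1.01 to 0.89). The N4 call against naive cells held in 15 of 15 alternative settings. Against T4 it was lost without N4 library 2 (edgeR adjusted p = 0.0598) and without T4 library 2 (0.0613), and held in 13 of 15. Regulatory T cells also carry CD25. The 5 CD4 and regulatory T cell markers summed to 5.643 and 6.531 CPM in N4 libraries. T4 libraries held 8.674 and 7.986 CPM of them and naive libraries 11.5 and 20.14 CPM. Among them Foxp3 had 0.394 and 1.153 CPM in N4, 0.3319 and 0.0155 CPM in T4 and 0.5375 and 0.9449 CPM in naive libraries. Cd4 was at 0 in both N4 libraries and in naive library 1, and at most 0.1081 CPM in the others. In N4 libraries Ikzf2 held 2.776 and 2.941 CPM, Zbtb7b 0.9828 and 1.837 CPM and Cd40lg 1.49 and 0.6008 CPM. The part of such cells in the Il2ra values was not tested.

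Il2rb (ENSMUSG00000068227.10, chromosome 15, 78479256 to 78495271, minus strand) encodes the beta chain of the IL-2 and IL-15 receptors. N4 libraries held 165 and 150 CPM, T4 libraries 112.9 and 100.3 CPM and naive libraries 89.07 and 117.5 CPM. Both N4 values were above all others, but the log2 fold change of 0.61 ± 0.25 against naive cells missed the threshold (edgeR adjusted p = 0.16; 95% interval 0.01 to 1.21). Against T4 cells it was 0.56 ± 0.25 (edgeR adjusted p = 0.194) and turned to -0.29 when libraries were scaled by their totals alone. T4 and naive cells overlapped, with a log2 fold change of 0.05 ± 0.25.

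Il15ra (ENSMUSG00000023206.17, chromosome 2, 11705290 to 11734317, plus strand) encodes the alpha chain that binds IL-15 and can present it to neighbouring cells. It lies 12.1 kb from Il2ra, with no protein-coding gene between them. Its CPM values were 4.688 and 1.759 in N4 libraries, 4.223 and 4.236 in T4 libraries and 3.307 and 2.871 in naive libraries. The N4 libraries spanned all the others. The log2 fold change against naive cells was 0.06 ± 0.50 in N4 (95% interval -1.15 to 1.27) and 0.45 ± 0.50 in T4 (-0.76 to 1.66), and neither was called.

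Il2rg (ENSMUSG00000031304.19, chromosome X, 101264378 to 101268255, minus strand) encodes the common gamma chain. It stood at 157.5 and 140.3 CPM in N4 libraries, 373.7 and 342.7 CPM in T4 libraries and 642.5 and 369.8 CPM in naive libraries. N4 cells were below every other library, and naive library 2 lay between the T4 libraries. The fall in N4 against naive cells was -1.77 ± 0.33 on the log2 scale (edgeR adjusted p = 0.0265), a 3.40-fold lower level. Against T4 cells the value was -1.27 ± 0.33 and missed the threshold (edgeR adjusted p = 0.0646), as did T4 against naive cells at -0.50 ± 0.32 (0.55). The call against naive cells was lost without either N4 library (adjusted p = 0.1 and 0.137), without either T4 library (0.0604 and 0.0626) and with only both groups in the fit (0.0657). With scaling by library totals the value was -2.39 (0.042). The value against T4 cells was called without naive library 1 (adjusted p = 0.0105) and without naive library 2 (0.0108).

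Il7r (ENSMUSG00000003882.6, chromosome 15, 9505788 to 9530176, minus strand) encodes the IL-7 receptor alpha chain, also a chain of the receptor for TSLP. Its values were 21.78 and 31.64 CPM in N4 libraries, 13.82 and 15.12 CPM in T4 libraries and 55.7 and 65.77 CPM in naive libraries. All 3 groups were apart, with T4 the lowest. In N4 against naive cells the log2 fold change was -1.19 ± 0.27, past the threshold (edgeR adjusted p = 0.0447). In T4 against naive cells the difference was larger in size, -2.07 ± 0.28, or 4.20-fold lower, but had an edgeR adjusted p of 0.066. Fewer genes were called in that comparison, and p-values were adjusted within each comparison. N4 against T4 cells gave 0.88 ± 0.27 (edgeR adjusted p = 0.0949; 95% interval 0.22 to 1.55), which came to -0.001 when libraries were scaled by their totals alone. The N4 call against naive cells was lost without either T4 library (adjusted p = 0.101 and 0.102) and when scaled to T cell markers (0.0612). It was also lost with only both groups in the fit (0.0865) and with a minimum fold change of 1.5 (0.109). Without N4 library 1 (log2 fold change -0.94), N4 library 2 (-1.485) or naive library 2 (-1.07) it was lost too. It held in 7 of 15 settings. The T4 value was called without naive library 1 (0.0311), without naive library 2 (0.0489) and with DESeq2 (2.15e-09).

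Il4ra (ENSMUSG00000030748.10, chromosome 7, 125552120 to 125579474, plus strand) encodes the IL-4 receptor alpha chain. CPM values were 3.13 and 1.172 in N4 libraries, 4.275 and 4.693 in T4 libraries and 14.82 and 8 in naive libraries. The groups did not overlap and followed the order N4, T4, naive from low to high. Against naive cells the log2 fold change was -2.41 ± 0.56 in N4 cells (edgeR adjusted p = 0.046), a 5.30-fold lower level, and -1.35 ± 0.54 in T4 cells (0.34). The N4 call was lost without either T4 library (adjusted p = 0.0749 and 0.0795). Scaling to T cell markers (0.0791) and by library totals (0.0749) also lost it. So did a fit of only both groups (0.0825) and a minimum fold change of 1.5 (0.0684). Without N4 library 2 (log2 fold change -1.87) or naive library 1 (-2.01) it was lost too. The call held in 7 of 15 settings. Without N4 library 1 the value was -3.29 (adjusted p = 0.0487).

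Il21r (ENSMUSG00000030745.10, chromosome 7, 125603429 to 125633570, plus strand), the IL-21 receptor chain, lies 23954 bases from Il4ra with no protein-coding gene between them. It stood at 25.61 and 10.13 CPM in N4 libraries, 26.5 and 24.67 CPM in T4 libraries and 50.3 and 24.26 CPM in naive libraries. The groups overlapped in each comparison with naive cells. Its log2 fold change against naive cells was -1.06 ± 0.53 in N4 (95% interval -2.36 to 0.23; edgeR adjusted p = 0.234) and -0.54 ± 0.53 in T4 (-1.83 to 0.74; 0.728).

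In these bulk libraries, less RNA of a chain per T cell and fewer cells of a type that carries it cannot be told apart. Macrophages, B cells and granulocytes also carry Il2rg and Il4ra, and the markers of macrophages and neutrophils were lower in N4 than in naive libraries, as given above. Of the 12 macrophage and monocyte markers 10 were called lower in N4 cells, of the 9 neutrophil markers 8, and of the 9 tested B cell markers 6. Natural killer cells are known to carry Il2rb, Il2rg and Il18r1. Their 7 markers summed to 51.72 and 38.49 CPM in N4 libraries, 376.8 and 412.2 CPM in T4 libraries and 945.9 and 2978 CPM in naive libraries, and 6 of them were called lower in N4 than in naive cells. The 10 dendritic cell markers summed to 82.7 and 78.93 CPM in N4 libraries, 425.3 and 438.3 CPM in T4 libraries and 1662 and 1220 CPM in naive libraries, with 5 called lower. Red cell markers summed to 425.7 and 361.8 CPM in N4 libraries, 6617 and 8205 CPM in T4 libraries and 3492 and 9260 CPM in naive libraries, with 7 of 7 called lower. The part of these cells in the values of the chains was not tested. Per 1000 counts of the T cell markers, Il2rg had 39.47 and 28.85 counts in N4 libraries, 98.92 and 86.45 in T4 libraries and 118.8 and 69.57 in naive libraries. On the same scale Il7r had 5.456 and 6.508 counts in N4 libraries, 3.657 and 3.814 in T4 libraries and 10.3 and 12.37 in naive libraries, and Il4ra had 0.7841 and 0.2411 counts in N4 libraries, 1.132 and 1.184 in T4 libraries and 2.741 and 1.505 in naive libraries. The group order of these 3 chains was the same as in CPM, except that naive library 2 fell below both T4 libraries for Il2rg. This scale does not remove RNA of the chains that other cells hold, so it cannot tell the possibilities above apart.

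Il12rb1 (ENSMUSG00000000791.10, chromosome 8, 70808449 to 70821424, plus strand) encodes the beta 1 chain shared by the IL-12 and IL-23 receptors. It had 4.851 and 1.622 CPM in N4 libraries, 1.003 and 0.8575 CPM in T4 libraries and 0.968 and 1.081 CPM in naive libraries. Both N4 libraries were above all others, but they lay far apart. The log2 fold change was 1.66 ± 0.59 against naive cells (edgeR adjusted p = 0.122) and 1.80 ± 0.59 against T4 cells (0.11). Neither passed the threshold of the edgeR test, and DESeq2 called both (adjusted p = 0.0437 and 0.0224). Against naive cells the value was 0.66 without N4 library 1 and 2.24 without N4 library 2, and against T4 cells 0.80 and 2.38.

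Il12rb2 (ENSMUSG00000018341.13, chromosome 6, 67291318 to 67376188, minus strand) encodes the beta 2 chain, the IL-12 receptor chain that recruits STAT4. Values were 3.143 and 3.937 CPM in N4 libraries, 0.3864 and 0.5295 CPM in T4 libraries and 0.8609 and 0.2002 CPM in naive libraries. N4 libraries lay above all others, while T4 libraries lay between the naive ones. The log2 fold change was 2.73 ± 0.75 against naive cells (edgeR adjusted p = 0.0677; 95% interval 0.90 to 4.56) and 2.95 ± 0.76 against T4 cells (0.0647; 1.10 to 4.80). Without naive library 1 both passed, with adjusted p = 0.0195 and 0.0121, and without naive library 2 the value against T4 cells passed (0.0111). The log2 fold change against naive cells was 4.00 without naive library 1 and 2.03 without naive library 2. The DESeq2 test (adjusted p = 0.00239 against naive cells) and the fit without a filter called Il12rb2 in both comparisons. It was not called in 11 of 15 settings against naive cells and in 10 of 15 against T4 cells. Of the 3794 exon bases of Il12rb2, 1519 are shared with exons of Serbp1 on the opposite strand, and the library kit does not mark strand. Serbp1 stood at 149.5 and 119.3 CPM in N4 libraries, 110.2 and 107 CPM in T4 libraries and 87.64 and 57.97 CPM in naive libraries, and its part in the Il12rb2 values was not tested. Il2rg and Il4ra also share exon bases with another gene, but Gm20489 and Gm44876 stayed at or under 0.08265 CPM in every library.

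Il18r1 (ENSMUSG00000026070.16, chromosome 1, 40465552 to 40500854, plus strand) encodes the chain that binds IL-18. Its values were 14.63 and 15.44 CPM in N4 libraries, 4.305 and 6.005 CPM in T4 libraries and 5.949 and 6.018 CPM in naive libraries. Both N4 libraries were above the rest, and T4 and naive libraries overlapped. The log2 fold change was 1.33 ± 0.28 against naive cells (edgeR adjusted p = 0.0347) and 1.54 ± 0.28, or 2.92-fold, against T4 cells (0.0338). Against naive cells the call was lost without either T4 library (adjusted p = 0.112 and 0.114) and after GC correction (0.0635). Scaling by library totals (log2 fold change 0.78, adjusted p = 0.226) also lost it. So did a fit of only both groups (0.0863) and a minimum fold change of 1.5 (0.0788). Without N4 library 1 (log2 fold change 1.365), N4 library 2 (1.285) or naive library 1 (1.18) it was lost too, and it held in 6 of 15 settings. Against T4 cells the call was lost without any 1 of the 4 libraries compared and with a minimum fold change of 1.5. It was also lost after GC correction (0.0623) and with scaling by library totals (0.69, 0.245), and held in 8 of 15. Il18rap, the second chain of the receptor, lies 14.5 kb away and stood at 8.402 and 11.95 CPM in N4 libraries, 5.967 and 6.702 CPM in T4 libraries and 3.136 and 7.579 CPM in naive libraries, with no call.

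**Figure D2:**
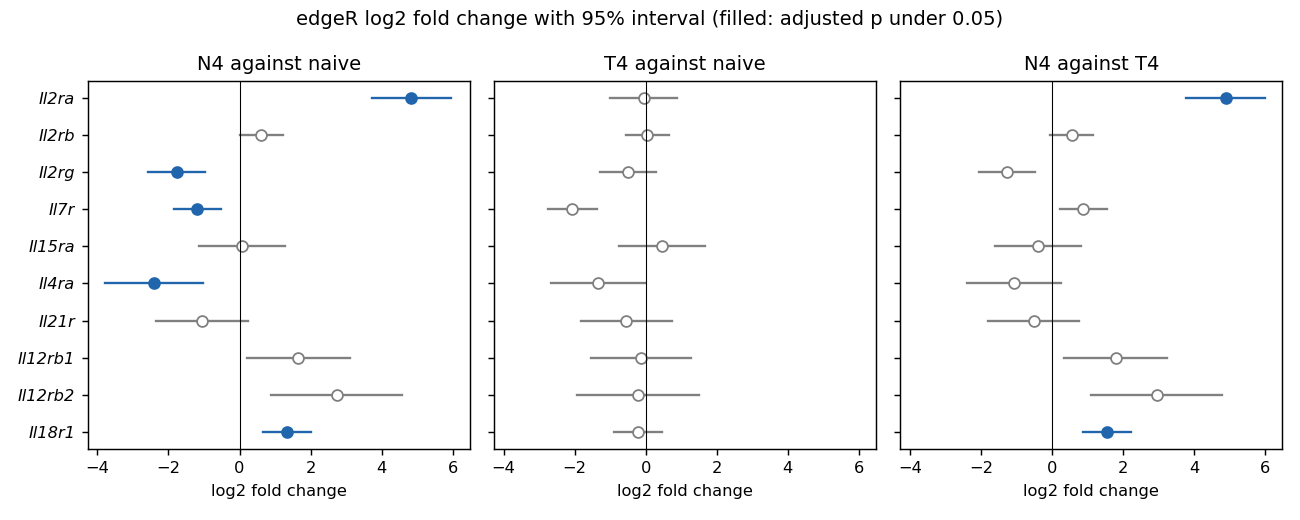
edgeR log2 fold change of each chain in N4 against naive, T4 against naive and N4 against T4 cells, with 95% intervals from the fit over all 6 libraries; filled points passed the adjusted threshold of 0.05. Il2ra stands apart at 4.83 and 4.89 in both N4 comparisons, and no chain is filled in T4 against naive cells.

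Counted over the 10 chains, the N4 and naive libraries did not overlap for 8, all but Il15ra and Il21r, where the share over all genes tested was 55.4%. The same 8 did not overlap between N4 and T4 (65.2% of all genes). In T4 against naive cells 3 did not overlap, Il7r, Il15ra and Il4ra, against 48.8% of all genes. There edgeR called 0 of 10 chains, beside 0.0826% of all genes called higher and 0.0348% called lower; 2 chains, Il7r and Il4ra, had an unadjusted p under 0.05, beside 14.5% of all genes, and DESeq2 called 1, Il7r, beside 8.67% of all genes. In N4 against T4 cells edgeR called 2 chains higher and 0 lower, beside 3.48% and 4.47% of all genes. The median log2 fold change of the 10 chains was 0.34 in N4 against naive, -0.22 in T4 against naive and 0.72 in N4 against T4 cells, beside -0.09, 0.00 and -0.20 over all genes.

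**Figure D3:**
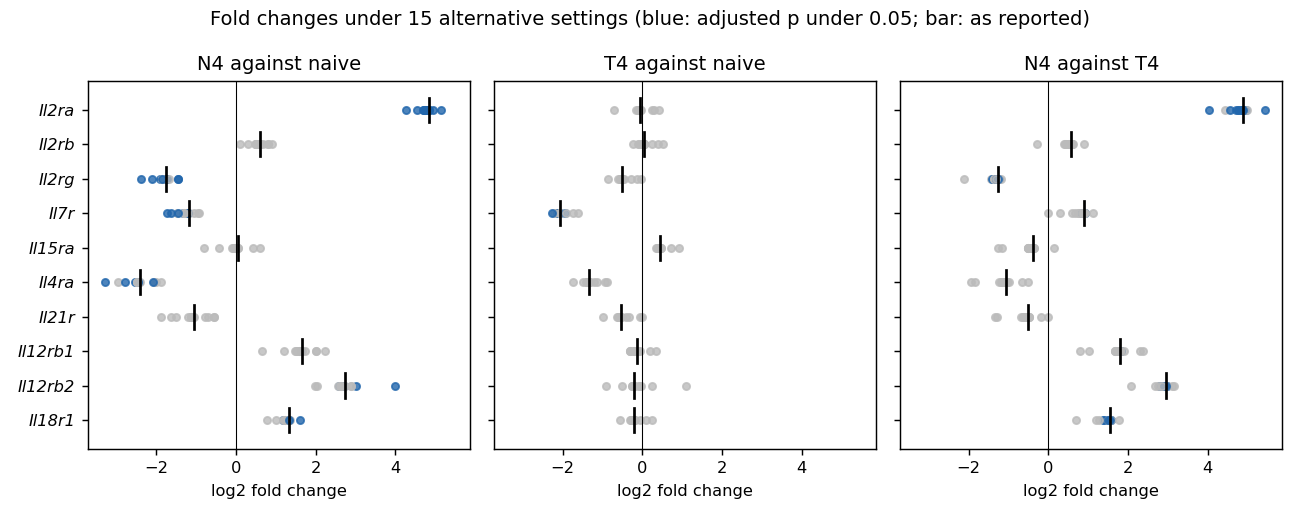
Log2 fold change of each chain under 15 alternative settings (points, blue where the adjusted p was under 0.05) beside the reported value (bar), for the 3 comparisons. The points of Il2ra stay between 4.28 and 5.14 in N4 against naive cells, and those of Il18r1 stay above 0.69 in both N4 comparisons while many lose their call.

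Levels of different chains can be compared only per transcript length, for which TPM, a length-scaled abundance, was computed within each library. TPM is not TMM-scaled, so it serves here for the order of chains and for ratios within a library. Il2rg led in every group, with 55.6 ± 15.8 TPM in N4 cells, 275 ± 35 TPM in T4 cells and 320 ± 243 TPM in naive cells (SD, n = 2). Il2rb came next, at 22.9 ± 6.08 TPM in N4 cells, 31.1 ± 4.5 TPM in T4 cells and 22 ± 5.77 TPM in naive cells. In N4 cells Il2ra followed at 6.06 ± 1.86 TPM, with Il7r (5.69), Il21r (4.73), Il18r1 (3.16), Il15ra (1.87), Il12rb1 (0.755) and Il12rb2 (0.704) behind it, each overlapping its neighbour, and Il4ra last at 0.264 TPM. The place of Il2ra in this order depends on its short model Il2ra-202: Il2ra-201 alone came to 1.85 ± 0.554 TPM in N4 cells, below Il7r, Il21r and Il18r1, and gene counts over the union of exons gave 3.59 TPM for Il2ra. In T4 cells the order was Il21r (12.8), Il7r (5.93), Il15ra (3.52), Il18r1 (2.1), Il4ra (1.08), Il12rb1 (0.401), Il2ra (0.307) and Il12rb2 (0.185), where only Il12rb1 and Il2ra overlapped. In naive cells Il7r (20.5) and Il21r (15.8) came next and overlapped, as did Il2rb with Il7r. Far below them came Il18r1 (2.26), Il4ra (2.23), Il15ra (2.09), Il12rb1 (0.352), Il2ra (0.305) and Il12rb2 (0.198), where only Il15ra and Il12rb1 did not overlap as neighbours.

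The Il2ra to Il2rb ratio was 0.271 and 0.255 in N4 libraries, 0.0103 and 0.00936 in T4 libraries and 0.0158 and 0.0111 in naive libraries. Most of the Il2ra TPM in N4 cells, 69.5% ± 0.23 (SD, n = 2), came from Il2ra-202, a short model of 1013 bases and 2 exons. With the full transcript Il2ra-201 alone, the ratio to Il2rb was 0.0822 and 0.0782 in N4 libraries, 0.00687 and 0.00271 in T4 libraries and 0.00583 and 0.00363 in naive libraries. The size of the ratio thus depends on the transcript model, while N4 libraries lay above the other 4 either way. The Il2rg to Il2rb ratio was 2.45 and 2.38 in N4 libraries, 8.76 and 8.99 in T4 libraries and 18.9 and 8.27 in naive libraries. Il2rg over the sum of its 4 partner chains measured here, Il2rb, Il7r, Il4ra and Il21r, came to 1.66 and 1.65 in N4 libraries, 5.44 and 5.37 in T4 libraries and 6.12 and 3.64 in naive libraries. In N4 cells the gamma chain was closest to its partners, and the T4 libraries lay between the naive ones. Il2rb made up 68.4% ± 0.998 of the summed TPM of these 4 partners in N4 cells, 60.9% ± 1.67 in T4 cells and 38.2% ± 8.18 in naive cells (SD, n = 2). Il7r made up 17.9% ± 6.64 in N4 cells, 11.7% ± 1.3 in T4 cells and 34.8% ± 4.21 in naive cells. The partner mix thus leaned to Il2rb in all 4 stimulated libraries, and Il7r was lower there than in either naive library. Il7r TPM includes 2 short non-coding models, Il7r-202 and Il7r-203. Their mean shares of Il7r counts were 16.5% and 1.12% in naive, 13.2% and 1.21% in N4 and 10.2% and 0.778% in T4 cells. Counts are not divided by length, and these models have 1548 and 359 bases beside 3540 for Il7r-201. Their shares of Il7r TPM were therefore larger than these shares of counts. The sizes of the partner shares thus depend on the transcript models too. The part of other cells in them was not tested. Il12rb2 over Il12rb1 was 0.601 and 2.25 in N4 libraries, 0.358 and 0.594 in T4 libraries and 0.807 and 0.16 in naive libraries, so the naive libraries overlapped both other groups. With 2 libraries against 2 an exact permutation test of a ratio cannot go below p = 0.33, so these are given as values.

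**Figure D4:**
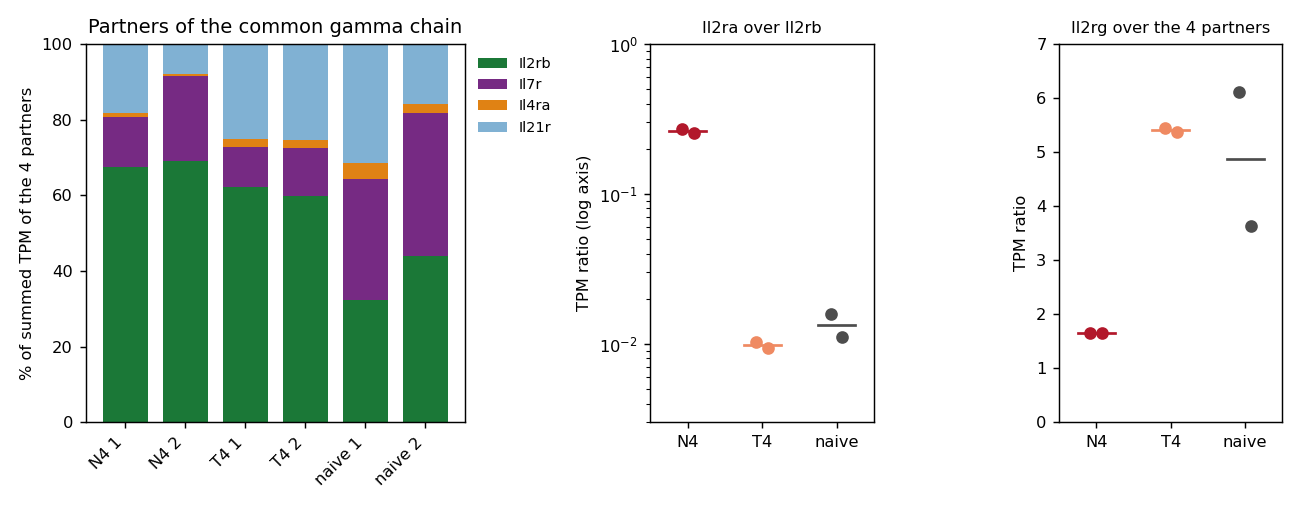
Left, the share of Il2rb, Il7r, Il4ra and Il21r in their summed TPM in each library; middle, Il2ra over Il2rb (log axis); right, Il2rg over the sum of the 4 partners, with points for libraries and lines for means. Il2rb takes 68.4% in N4 cells, 60.9% in T4 cells and 38.2% in naive cells, and Il2ra over Il2rb, with all Il2ra transcripts summed, is above 0.25 in N4 libraries only among these 6.

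Transcript use of the receptor genes showed no called change. Of the 10 genes 8 had 2 or more transcripts to test, all but Il12rb1 and Il12rb2, and diffSpliceDGE called 0 of them in any comparison, beside 1.31% of the 10393 genes tested. None of the 8 had an unadjusted p under 0.05, beside 18.7% of all genes tested, and the gene-level F test also called 0, beside 4.77%. Transcripts with the full coding sequence held 100% of Il2rb counts in every library and 94.2 to 97.7% of Il2rg counts. For Il18r1 their share was 75.9% and 70% in N4 libraries, 53.4% and 81.4% in T4 libraries and 33% and 82.5% in naive libraries. For Il15ra it was 56.1% and 0% in N4 libraries, 39.6% and 36.5% in T4 libraries and 18% and 60.5% in naive libraries. Libraries of 1 group could thus lie far apart. For Il2ra the full transcript, Il2ra-201, held 65.5% and 65.9% in N4 libraries, 89.7% and 64% in T4 libraries and 71.9% and 67.9% in naive libraries. The rest was Il2ra-202, a coding model of 2 exons that lacks exons 2 to 8 of Il2ra-201. Il7r-204, which has all 8 exons but a coding sequence of 858 rather than 1377 bases, held 40.8% of Il7r counts in T4 library 2 and 0% in T4 library 1. Il12rb1-205, which lacks exon 14 (97 bases), held 40.7% of Il12rb1 counts in naive library 1 and 0% in the other 5. Such shares in single libraries are estimates that split reads among overlapping models.

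The other chains of cytokine receptors were taken as a list of 34, of which 29 were tested. In N4 against naive cells 1 was called higher, Il1rl1, and 7 lower: Il13ra1, Lifr, Csf2ra, Il10rb, Il6st, Csf2rb and Crlf2. Csf2ra, the alpha chain for GM-CSF, is a chain of myeloid cells. It stood at 0.4574 and 0.4299 CPM in N4 libraries, 7.621 and 3.593 CPM in T4 libraries and 11.3 and 5.862 CPM in naive libraries. Its log2 fold change in N4 against naive cells was -4.27 ± 0.56 (edgeR adjusted p = 0.0125). Macrophage and neutrophil markers were also lower in N4 than in naive libraries. In T4 against naive cells Csf2ra was at -0.61 ± 0.49 (edgeR adjusted p = 0.65). The median there was -5.53 for the macrophage and monocyte markers and -9.62 for the neutrophil markers. The part of myeloid cells in the Csf2ra values was not tested. Crlf2, which pairs with Il7r to bind TSLP, had a log2 fold change of -1.11 ± 0.23 (edgeR adjusted p = 0.0335). In N4 against T4 cells 0 of the 29 were called higher and 4 lower, Csf2ra, Il10ra, Il17rc and Csf2rb. Il10ra, the ligand-binding chain of the IL-10 receptor, had 2.971 and 2.286 CPM in N4 libraries, 9.95 and 13.11 CPM in T4 libraries and 7.808 and 5.097 CPM in naive libraries, with a log2 fold change of -2.13 ± 0.36 against T4 cells (edgeR adjusted p = 0.0307). In T4 against naive cells none of the 29 was called.

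Of the ligands 11 of 13 were tested. Il2 stood at 17.35 and 3.073 CPM in N4 libraries, 2.769 and 3.107 CPM in T4 libraries and 1.546 and 3.119 CPM in naive libraries, and was not called in any comparison. Il15 fell in N4 against naive cells by 3.08 ± 0.47 on the log2 scale (edgeR adjusted p = 0.0171), with 0.933 and 1.294 CPM in N4 and 6.152 and 12.65 CPM in naive libraries. In T4 libraries Il15 stood at 2.648 and 2.126 CPM, with a log2 fold change against naive cells of -1.98 ± 0.45 (edgeR adjusted p = 0.144). Myeloid cells are a known source of IL-15, and macrophage and neutrophil markers were also lower in N4 than in naive libraries, as given above. The part of myeloid cells in the Il15 values was not tested. Il18 was higher in N4 than in T4 cells, at 13.3 and 21.09 CPM in N4 and 2.202 and 2.632 CPM in T4 libraries (log2 fold change 2.83 ± 0.38, edgeR adjusted p = 0.0231). The naive libraries held 18.38 and 11.94 CPM of Il18, so T4 was the low group. Tslp was the other called ligand, lower in N4 than in T4 cells with a log2 fold change of -3.02 ± 0.63 (edgeR adjusted p = 0.0435).

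None of the 11 JAK and STAT genes was called in any comparison. Their median log2 fold change was -0.17 in N4 against naive, 0.01 in T4 against naive and -0.17 in N4 against T4 cells. Jak3, the kinase bound to the common gamma chain, stood at 10.76 and 8.026 CPM in N4 libraries, 13.53 and 12.22 CPM in T4 libraries and 19.55 and 9.317 CPM in naive libraries. Among 8 genes of CIS and SOCS feedback 2 fell in N4 against naive cells. Socs3, which restrains STAT3 signals, had 4.081 and 2.55 CPM in N4 libraries, 4.451 and 3.838 CPM in T4 libraries and 38.33 and 15.84 CPM in naive libraries (log2 fold change -3.03 ± 0.51 in N4 against naive cells, edgeR adjusted p = 0.0208). Socs1, an inhibitor of JAK kinases, had 61.15 and 59.04 CPM in N4 libraries, 51.99 and 60.71 CPM in T4 libraries and 142.2 and 282.1 CPM in naive libraries (-1.82 ± 0.37, edgeR adjusted p = 0.0318). Neither was called in T4 cells, where their log2 fold changes were -2.71 ± 0.50 and -1.91 ± 0.37 (edgeR adjusted p = 0.102 and 0.107). Cish, the CIS gene that STAT5 induces, stood at 6.536 and 0.2491 CPM in N4 libraries, which span all the others. Of 9 genes of IL-1 family receptor signalling only Irak3, an inhibitor of the pathway, was called, lower in N4 in both of its comparisons and at 0 in both N4 libraries. Myd88, the adaptor of the IL-18 receptor, was not called and stood at 16.98 and 11.45 CPM in N4 and 44.69 and 25.03 CPM in naive libraries.

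Of 15 cytokine response genes 2 rose and 3 fell in N4 against naive cells. Ifng, which IL-12 and IL-18 are known to induce, had 117 and 39.34 CPM in N4 libraries, 12.26 and 12.27 CPM in T4 libraries and 3.084 and 5.882 CPM in naive libraries (log2 fold change 4.13 ± 0.63 in N4 against naive cells, edgeR adjusted p = 0.017). Gzmb, the cytotoxic protease granzyme B, had 423 and 486.8 CPM in N4 libraries, 39.42 and 38.42 CPM in T4 libraries and 19.03 and 71.95 CPM in naive libraries (3.55 ± 0.64 in N4 against T4 cells, edgeR adjusted p = 0.0338). Bcl2, the survival gene that IL-7 is known to sustain, had 10.2 and 14.89 CPM in N4 libraries, 16.16 and 17.28 CPM in T4 libraries and 46.44 and 59.57 CPM in naive libraries (-2.08 ± 0.29 in N4 against naive cells, edgeR adjusted p = 0.0144). Osm and Mcl1 were the other called genes, both lower in N4. In T4 against naive cells 0 of the 15 were called, with Bcl2 at -1.67 ± 0.29 (edgeR adjusted p = 0.0945). Among 17 transcription factors known to act on receptor genes, Gabpa and Bhlhe40 rose and Bach2 fell in N4 against naive cells. Gabpa, a subunit of GABP, which binds the Il7r promoter, had 20.09 and 26.06 CPM in N4 libraries, 6.854 and 7.585 CPM in T4 libraries and 6.856 and 2.943 CPM in naive libraries (log2 fold change 2.23 ± 0.45, edgeR adjusted p = 0.0312). Id2 was the single factor called between the peptides, at 1059 and 1530 CPM in N4 and 194.9 and 217.7 CPM in T4 libraries (2.65 ± 0.41, edgeR adjusted p = 0.0265).

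For each chain the 2 genes of most similar pattern were sought among 5063 protein-coding genes, by the root mean square difference of centred log2 CPM over the 6 libraries. This difference is not scaled by how much a gene varies, so it tends to be larger for chains with larger changes. It does not rank how well the chains are matched, and the matches were not tested against chance. The smallest differences were those of Il2rb with Gabpb2 (0.048) and Nrm (0.072), followed by Il2rg with Usf1 (0.073) and Gpsm3 (0.079). Il18r1 was nearest to Ipp (0.137) and Psmd14 (0.143), and Il7r to Etfbkmt (0.183) and Ddit4 (0.191). Il21r lay nearest to Kctd10 (0.154) and Ccnd2 (0.155), Il15ra to Lzic (0.163) and Slc19a1 (0.18), and Il4ra to Unc93b1 (0.224) and Ppt1 (0.257). The nearest genes lay farther away for 3 chains. Il12rb1 was 0.404 from Oxnad1 and 0.406 from Hsp90b1, and Il12rb2 was 0.584 from Gabpa and 0.677 from Tspan6. Il2ra had the most distant pair, S100a4 (0.766) and Serpinb9 (0.78), whose log2 fold changes in N4 against naive cells were 3.82 and 4.12, beside 4.83 for Il2ra itself.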

How the data were processed

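Polyadenylated RNA of 6 libraries (3 groups of 2) was made into libraries with the SMARTer ultra-low input kit, per the labels' protocols. The authors deposited estimated counts per gene and per transcript, as whole numbers and not normalized. The submitters' processing notes name STAR 2.7.1a, SAMtools 1.9, StringTie 2.1.0, R 4.0.5, DESeq2 1.30.1 and the build mm39, with no role given. The sources used here do not give the strand setting or annotation release. If the estimates come from coverage, their scale depends on a read length that is not given, so totals are not numbers of reads. Symbols (94% of genes), transcript models and coordinates come from GENCODE M21 on GRCm38, another build than that of the counts. Promoter sequences are from RefSeq (GRCm38.p6).

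Counts were tested with edgeR 4.0.16 in R 4.3.3: filterByExpr (23003 genes), TMM, and the quasi-likelihood test for group means with all 6 libraries in 1 fit, Benjamini-Hochberg adjustment over all genes and a threshold of 0.05. Residual degrees of freedom were 3, so SE and 95% intervals use 3.09 prior ones as well. Transcript use was tested with diffSpliceDGE. Alternatives were other scalings, no filter, DESeq2 1.42.0, a minimum fold change of 1.5, only the groups compared, a replicate block, leaving out each library and a GC correction. TPM used annotated transcript lengths. The procedures were tested on simulated data, in which diffSpliceDGE made false calls above its nominal rate.

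Libraries of a group differed by more than counting noise (chi-square of 118.4 to 2207 per degree of freedom), so each was kept as its own library. Whether they are technical replicates was not tested. P-values cover the spread among these libraries alone, and that may be technical. The receptor chains, gene lists and naming rule were chosen with earlier results of these data known. The rule names all receptor chains. From each other list it names the 2 genes of smallest p per comparison among called genes whose mean log2 CPM is 1 or more, and ligands and partner chains by value. Other genes, such as Serbp1, Foxp3, Cd4, Zbtb7b, Cd40lg, Cish, Jak3, Myd88, Crlf2 and the full sets of called genes where few, were named after their values were seen.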

Additional observations from a re-analysis of the deposited data

How the results depend on the processing

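Each count of chains is followed by the share of all genes called in that setting. Chains called in N4 against naive cells numbered 5 (12.1%), and 3 with scaling by library totals (10.7%), 4 with scaling to T cell markers (13.3%), 5 with DESeq2 size factors (11.8%), 6 without a filter (12.2%), 7 with the DESeq2 test (27.2%), 2 with a minimum fold change of 1.5 (7.79%), 1 with only both groups in the fit (5.04%), 4 after GC correction (11%) and 1 to 4 when 1 library was left out (2.45 to 17.4%). In T4 against naive cells the 0 called became 1 (Il7r) without a filter (2.74%), with DESeq2 (8.67%) and with the replicate block (0.565%), and 0 to 1 with a library left out (0 to 1.39%). In N4 against T4 cells the 2 called (7.96%) became 1 with scaling by library totals (8.94%), 4 without a filter (11%), 6 with DESeq2 (25.1%), 1 with a minimum fold change (3.34%), 5 with only both groups (24.7%), 1 after GC correction (4.61%), an alternative chosen after seeing the data, and 0 to 4 with a library left out (0 to 17.6%). Leaving out a library that a comparison does not use also removes a degree of freedom. Where a single library is left in a group, it is assumed to vary like the others. Receptor genes with changed transcript use stayed at 0 in all 9 alternatives. With the replicate block 5, 1 and 3 chains were called (15.7%, 0.565% and 14.6% of all genes); Il7r in T4 against naive cells then had an adjusted p of 0.0402 and Il2rg in N4 against T4 cells 0.0317. The numbers do not pair the libraries, since the labels name no shared source and same-numbered libraries correlated at 0.017 to 0.08 in their deviations. Median log2 fold changes of all genes were -0.65, 0.30 and -1.05 in N4 against naive, T4 against naive and N4 against T4 cells with scaling by library totals, and 0.17, 0.47 and -0.37 with scaling to T cell markers. Values that changed sign belonged to chains that were not called, and the cause was not tested. For Il15ra in N4 against naive cells they were -0.43 (library totals), -0.065 (no filter), -0.02 (only both groups), -0.043 (replicate block), -0.82 (without N4 1), -0.02 (without T4 1 or T4 2; -0.017 and -0.018), -0.045 (without naive 2) and -0.093 (GC correction), and in N4 against T4 cells 0.14 (without N4 2). With a library left out, the Il15ra values ranged from -0.82 to 0.60 in N4 against naive and from -1.27 to 0.14 in N4 against T4 cells. For T4 against naive cells, Il2rb came to -0.016 with DESeq2 size factors and with the DESeq2 test, -0.10 without T4 1, -0.23 without naive 1 and -0.093 after GC correction. Il2ra came to 0.24 (library totals), 0.43 (T cell markers) and 0.29 (without T4 2), Il12rb1 to 0.19 and 0.33, Il18r1 to 0.084 and 0.25 under the same scalings, and Il12rb2 to 0.26 (T cell markers) and 1.10 (without naive 1). With a library left out, Il2ra ranged from -0.70 to 0.29 and Il12rb2 from -0.91 to 1.10 there. In N4 against T4 cells Il2rb came to -0.29 and Il7r to -0.001 with library totals.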
